A study of Mus musculus with 2 samples.

Results

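The genes of lysosomal acidification and digestion, cathepsins left out, were followed in single cells labelled as microglia or macrophages, from optic nerves of mice. The set was a named list of 34 genes among the 31053 gene rows of the table. It held 16 subunits and accessory proteins of the vacuolar proton pump, 4 lysosomal membrane proteins, 3 glycosidases, 5 lipid and acyl hydrolases or their cofactors, 3 peptidases, and progranulin with 2 transcription factors. The genes were grouped by function. The mice were wildtype 129S1/SvlmJ animals of both sexes. In the injured group the optic nerve had been crushed at 8 weeks of age, and the cells were captured 2 weeks later, at 10 weeks. The uninjured group had no treatment and was also 10 weeks old. Each group was 1 droplet library, and the sources used here do not say how many animals it pooled. Library and condition therefore cannot be told apart, no test was made, and all intervals (exact, 95%) cover counting error only.

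A lysosome digests what a cell takes up. The vacuolar ATPase (V-ATPase) keeps its lumen acid: a membrane sector, V0, carries protons across, and a cytosolic sector, V1, burns ATP to drive it. Soluble hydrolases that work in acid then break down sugars, lipids and proteins, helped by lipid carriers such as prosaposin and Npc2. The factors Tfeb and Tfe3 bind a palindromic E-box in the promoters of many of these genes. Microglia and macrophages of a crushed nerve take up myelin and axon debris, which is rich in lipid.

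Because these genes are known as a group with a shared promoter motif, their promoters were searched in the RefSeq table (GRCm38.p6, 250 bases before to 50 after each start site). Of the 34 genes, 27 matched by symbol. The 8 letters TCACGTGA lay in a window of 3 of the 27 (11.1%), namely Atp6v0d1, Atp6v0e and Atp6v1a. They lay in a window of 304 of all 27025 genes with one (1.13%) and of 100 of the 3202 such genes whose RNA was compared (3.12%). The inner 6 letters CACGTG, which every TCACGTGA contains, lay in 6 of the 27 (22.2%), with Atp6v0b, Lamp1 and Lgmn beside the 3 above, against 8.09% of all genes and 13.1% of compared genes. Both motifs are palindromes, so a match reads the same on both strands. The stretches of RefSeq sequence from 170 bases before to 30 bases after the start site are shown for the 3 genes with the 8 letters, and for Lamp1, chosen after its values were seen, because its window held 4 separate E-boxes. They read 5′ to 3′ on the gene's strand, with the motif in capitals.
Atp6v0e, chr17:26676226-26676425, plus strand: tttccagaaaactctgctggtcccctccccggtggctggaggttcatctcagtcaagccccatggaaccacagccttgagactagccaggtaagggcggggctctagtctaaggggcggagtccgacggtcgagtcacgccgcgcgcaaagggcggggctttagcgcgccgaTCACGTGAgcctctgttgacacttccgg
Atp6v0d1, chr8:105566035-105566234, minus strand: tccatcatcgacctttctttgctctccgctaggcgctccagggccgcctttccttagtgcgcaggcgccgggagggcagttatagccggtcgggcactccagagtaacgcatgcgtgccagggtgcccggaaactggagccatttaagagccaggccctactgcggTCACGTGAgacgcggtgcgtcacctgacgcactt
Atp6v1a, chr16:44139230-44139429, minus strand: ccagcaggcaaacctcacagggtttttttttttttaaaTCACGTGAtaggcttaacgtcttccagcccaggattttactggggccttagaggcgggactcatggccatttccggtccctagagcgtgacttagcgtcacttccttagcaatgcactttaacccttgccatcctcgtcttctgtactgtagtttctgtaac
Lamp1, chr8:13158991-13159190, plus strand: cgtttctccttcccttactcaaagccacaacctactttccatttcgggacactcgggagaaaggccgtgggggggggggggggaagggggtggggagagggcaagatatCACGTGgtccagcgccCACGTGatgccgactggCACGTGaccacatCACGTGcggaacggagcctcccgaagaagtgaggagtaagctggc
The first letter of the motif lay at position -4 from the start site in Atp6v0d1, at +3 in Atp6v0e and at -132 in Atp6v1a. In Lamp1 the E-boxes began at -61, -45, -28 and -15. A match describes the letters in the window and does not show that a factor binds there.

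There were 727 injured cells with 3697992 unique molecular identifiers (UMIs, each 1 captured transcript) and 51 uninjured cells with 87499 UMIs, and 0 barcodes were shared. Median depth was 1123 and 888 UMIs per cell. Levels are in CPM, the UMIs of a gene in every 1000000 UMIs of a library's cells, and 0 uninjured UMIs allow up to 34.3 CPM. All 12 macrophage and microglia markers had UMIs in both libraries and summed to 36763 CPM after crush and 23909 CPM without it. The 8 oligodendrocyte markers summed to 1185 and 8617 CPM and the 6 astrocyte markers to 173 and 1074 CPM, so RNA of other cells was also unequal between the libraries. Their part in the ratios below was not tested. In 1 uninjured cell, 10194 of 11100 UMIs were haemoglobin, and values are therefore also given without that cell. A gene was compared if 10% or more of the cells in at least 1 library had a UMI of it, which left 4021 genes. Of the 34 lysosomal genes, 31 were compared, and Atp6v0c, Atp6v0d2 and Tfeb fell short.

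The lysosomal genes made up a larger share of the UMIs after crush. Because these are shares of a library, fewer cells of a type and less RNA per cell cannot be told apart in the sums. Together the genes summed to 16628 CPM in the injured library (16497 to 16760) and to 9029 CPM in the uninjured library (8410 to 9681), a ratio of 1.84 (1.72 to 1.98). Without the haemoglobin-rich cell the uninjured sum was 10314 CPM and the ratio 1.61 (1.503 to 1.73), and with each cell given the same weight it was 1.502. The V-ATPase genes stood at 2764 and 1509 CPM, a ratio of 1.83 (1.54 to 2.19), and the other 18 genes at 13864 and 7520 CPM, a ratio of 1.84 (1.71 to 1.99). Of the 31 compared genes, 22 were higher by at least 1.5-fold (on a scale with 10 CPM added to each level), 1 was lower and 8 lay between. Among all compared genes 32.8% were higher and 21.8% lower by the same rule. The median log2 ratio was 0.75 for the lysosomal genes and 0.17 for all compared genes. Measured relative to that median of all genes, 15 of the 31 were higher and 3 lower, and without the haemoglobin-rich cell 16 were higher and 3 lower. The counting interval of the ratio lay above 1 for 16 of the 31 and below 1 for 2, Lgmn and Tfe3. The shares of all compared genes given here and below belong to the main setting. Counts in other settings, and counts of intervals, have no such share beside them.

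**Figure D1:**
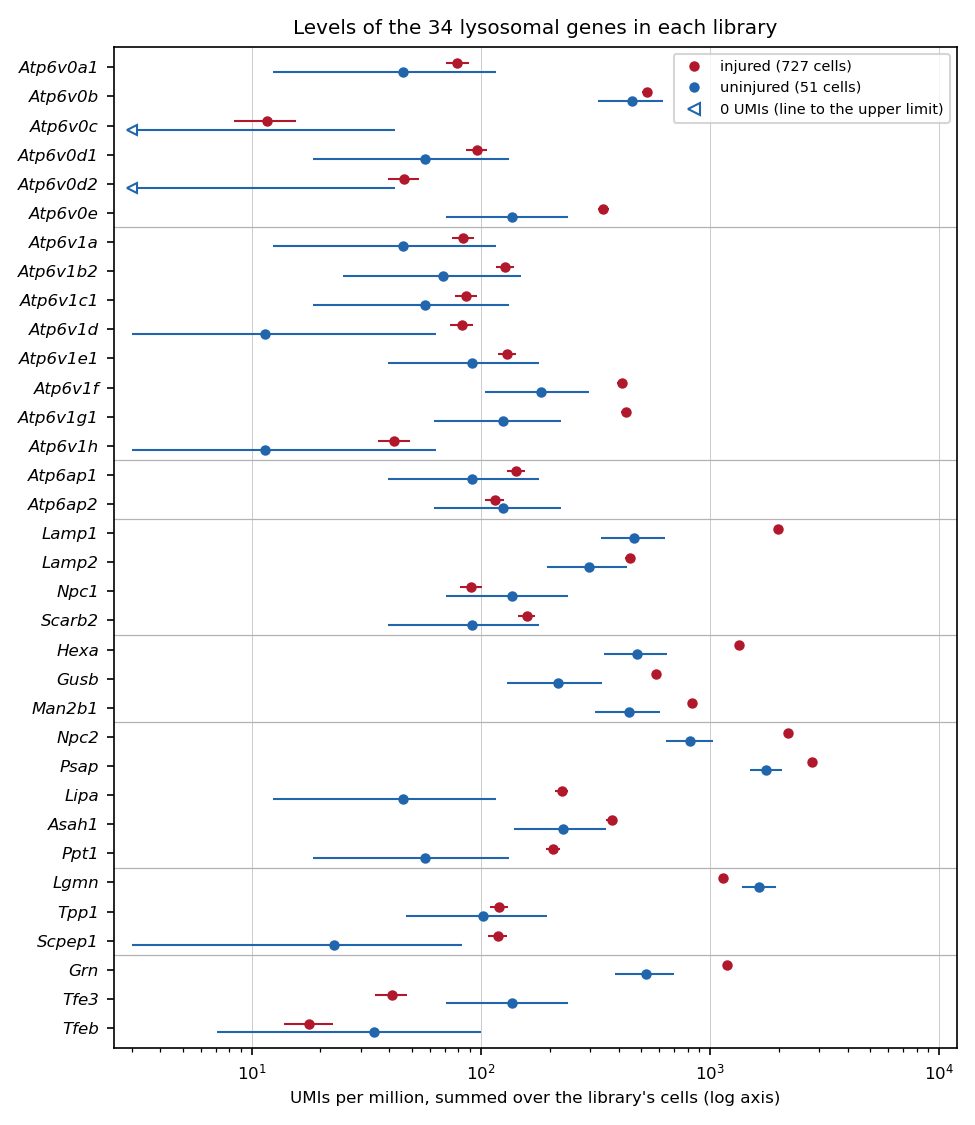
Level of each of the 34 genes in CPM (log axis) in the injured (red) and uninjured (blue) library, with exact 95% Poisson intervals as lines and grey lines between functional classes. Open triangles mark genes with 0 uninjured UMIs; Lamp1 stands at 1978 against 469 CPM, while Lgmn, Tfe3, Npc1, Atp6ap2 and Tfeb have the blue point on the right, the last 3 with overlapping intervals.

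The difference was also looked at cell by cell. In the injured library the share of a cell's UMIs that fell in the 34 genes had a median of 1.37%, with quartiles of 0.920 and 1.85% and a range from 0 to 5.59%. In the uninjured library the median was 0.871%, with quartiles of 0.573 and 1.26% and a range from 0 to 3.05%. The spreads of single cells overlapped widely. With UMIs drawn at random down to 500 per cell (2 uninjured cells and 0 injured ones were too shallow), the mean share was 1.41% of 727 cells and 0.996% of 49 cells. The haemoglobin-rich cell carried 2 UMIs of these genes, 0.221% of its UMIs outside haemoglobin, whereas the other 3 uninjured cells of at least 5000 UMIs carried 80, 106 and 69, or 0.836, 1.20 and 1.08% of their UMIs.

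**Figure D2:**
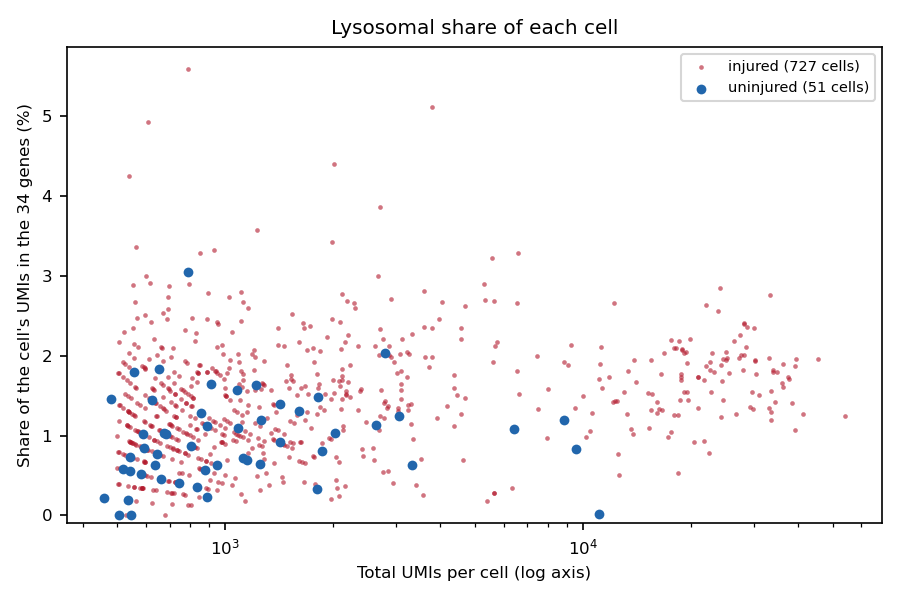
Share of each cell's UMIs in the 34 genes (percent) against the cell's total UMIs (log axis), with 1 point per cell, injured cells red and uninjured cells blue. Injured cells centre on 1.37% and uninjured cells on 0.871%, the 2 clouds overlap, and the haemoglobin-rich uninjured cell sits near 0 at 11100 UMIs.

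In the membrane sector V0 the 6 genes summed to 1107 CPM (1073 to 1142) after crush and 697 CPM (533 to 896) without it, a ratio of 1.59 (1.23 to 2.08). Atp6v0e, which encodes the small subunit e, was the only compared V0 gene with an interval above 1. It stood at 343 CPM (324 to 362) after crush and 137 CPM (70.9 to 240) without it, a ratio of 2.498 (1.43 to 4.85). Atp6v0b, a proton-carrying subunit of the rotor ring, was close to level, at 531 and 457 CPM, with a ratio of 1.16 (0.851 to 1.63). Atp6v0a1, of the stator that lines the proton path, was at 79.2 and 45.7 CPM, and Atp6v0d1, which couples the rotor ring to the stalk, at 96.0 and 57.1 CPM. These rest on 4 and 5 uninjured UMIs, and their ratios of 1.73 (0.670 to 6.40) and 1.68 (0.713 to 5.21) could not be told from 1. Of the 5 uninjured Atp6v0d1 UMIs, 3 lay in 1 cell, and without that cell the ratio was 4.07 (1.12 to 33.8). The cell was chosen for holding the most uninjured UMIs of the gene, and all injured cells were kept. Such a choice raises the ratio by design, here and for the genes below, and is no support for a difference. Of the 3 genes with the 8-letter motif, Atp6v0e, Atp6v0d1 and Atp6v1a, all were higher by 1.5-fold, with a median log2 ratio of 0.75, and so were 15 of the 22 compared genes whose windows lacked it, with a median of 0.81.

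Atp6v0d2, an alternative d subunit known from osteoclasts and macrophages, had UMIs in injured cells and none in uninjured cells. Its gene is protein-coding and sits on the minus strand of chromosome 4, 19876841 to 19922605 (mm10 and GENCODE vM21, as for all gene positions here). Atp6v0d2 had 171 UMIs in 42 injured cells, a share of 5.78% (4.195 to 7.73), and 0 UMIs in 51 uninjured cells. The injured level of 46.2 CPM (39.6 to 53.7) was at least 1.35-fold higher than what a count of 0 allows. Without the haemoglobin-rich cell the exact upper limit of the uninjured level was 48.3 CPM, above the injured level. The interval of the ratio then began at 0.947, so the difference was not resolved. At a depth of 500 UMIs Atp6v0d2 was in 1.38% of injured cells and in 0% of uninjured cells (0 to 7.25%), so at that depth a difference was not detectable. Atp6v0c, the main ring subunit, had 43 injured and 0 uninjured UMIs. It has annotated processed copies, Atp6v0c-ps1 and Atp6v0c-ps2, so its low count is uncertain.

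The 8 genes of the cytosolic sector V1 summed to 1398 CPM (1360 to 1437) after crush and 594 CPM (444 to 779) without it, a ratio of 2.35 (1.79 to 3.16). Over all cells this was above the ratio of V0. In cells of at least 5000 UMIs the order was the other way, with 1.97 (1.34 to 3.05) for V1 and 2.20 (1.41 to 3.66) for V0. In those cells the V1 and V0 ratios were 1.48 and 1.52 without the haemoglobin-rich cell. After thinning they were 0.917 and 0.875, without intervals. The 4 thinned uninjured cells, the haemoglobin-rich one included, held a mean of only 4.75 UMIs of the whole lysosomal set per cell. The thinned ratios therefore cannot show whether the pump difference was lost. The difference between the sectors was not tested. Of the 8, 6 were higher by 1.5-fold and none lower. The largest counts were those of 2 small subunits of the stalk. Atp6v1g1, subunit G (chromosome 4, 63544772 to 63550750, plus strand), was at 429 CPM (409 to 451) after crush and 126 CPM (62.8 to 225) without it, a ratio of 3.42 (1.90 to 6.86). Atp6v1f, subunit F, was at 416 and 183 CPM, a ratio of 2.27 (1.40 to 3.99). Both intervals lay above 1. Atp6v1d, of the central rotor, had 306 injured UMIs and 1 uninjured UMI, a ratio of 7.24 (1.29 to 287), and Atp6v1h, which regulates the pump, had 155 and 1, a ratio of 3.67 (0.649 to 146).

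The catalytic head showed smaller differences that the uninjured depth cannot resolve. Atp6v1a, the ATP-splitting subunit, had 310 injured and 4 uninjured UMIs, 83.8 and 45.7 CPM, with a ratio of 1.83 (0.709 to 6.77). Atp6v1b2, its partner in the head, was at 128 and 68.6 CPM, a ratio of 1.87 (0.851 to 5.11). Without the 1 uninjured cell with the most UMIs of the gene, these ratios were 3.30 (0.905 to 27.3) for Atp6v1a and 3.46 (1.18 to 16.8) for Atp6v1b2. Leaving out that cell, with all injured cells kept, raises a ratio by design. Atp6v1c1 and Atp6v1e1, of the peripheral stalk, had ratios of 1.51 (0.640 to 4.68) and 1.43 (0.718 to 3.32). The accessory proteins Atp6ap1 and Atp6ap2 summed to 258 and 217 CPM, a ratio of 1.19 (0.757 to 1.98) that was 0.803 with equal weight per cell and 0.994 with mitochondrial, ribosomal and haemoglobin genes out of the total. Atp6ap2, the prorenin receptor, was at 116 and 126 CPM, a ratio of 0.918 (0.508 to 1.85). A single cell held 6 of its 11 uninjured UMIs, and without it the ratio turned to 1.82 (0.772 to 5.62). Atp6ap1 alone was higher by 1.56-fold (0.787 to 3.64), and its log2 ratio turned to -0.23 with equal weight per cell.

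The 4 lysosomal membrane proteins were higher in sum, 2676 CPM (2624 to 2729) against 994 CPM (796 to 1226), or a ratio of 2.69 (2.18 to 3.36), and Lamp1 accounts for most of the difference. With equal weight per cell the ratio of the class was 2.04. Lamp1, a heavily glycosylated coat protein of the lysosome (chromosome 8, 13159161 to 13175338, plus strand, ENSMUSG00000031447.7), had 7314 UMIs in 549 of 727 injured cells and 41 UMIs in 24 of 51 uninjured cells. That is 1978 CPM (1933 to 2024) against 469 CPM (336 to 636), with a ratio of 4.22 (3.11 to 5.89). With cells thinned to 500 UMIs, Lamp1 was detected in 53.1% (49.4 to 56.8) of the injured and 30.6% (18.3 to 45.4) of the uninjured, at 0.858 and 0.388 UMIs per cell, and its log2 ratio was 1.136 there beside 2.05 in the full counts. Its relative Lamp2, needed for autophagosome fusion, was higher by only 1.51-fold (1.03 to 2.32), at 449 and 297 CPM, which was under the call, and by 1.32-fold (0.896 to 2.02) without the haemoglobin-rich cell. Scarb2, the receptor that carries glucocerebrosidase to the lysosome, was at 159 and 91.4 CPM, a ratio of 1.74 (0.875 to 4.04) whose log2 value turned to -0.34 in thinned cells. Npc1, the cholesterol exporter, was at 90.9 CPM (81.4 to 101) and 137 CPM (70.9 to 240), a ratio of 0.663 (0.374 to 1.295) that depth does not resolve. Its log2 ratio of -0.54 was -0.73 without the haemoglobin-rich cell, which was called lower, though the interval of that ratio (0.327 to 1.13) included 1. It turned to 0.58 in thinned cells and to 0.15 without the uninjured Malat1-rich cells, with the injured ones kept.

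The 3 glycosidases were each called higher over all cells, at 2755 against 1143 CPM in sum, a ratio of 2.41 (1.98 to 2.97). Hexa, the alpha chain of hexosaminidase, which trims gangliosides, had 4943 injured and 42 uninjured UMIs. Its level was 1337 CPM (1300 to 1374) against 480 CPM (346 to 649), a ratio of 2.79 (2.06 to 3.87). Gusb, the beta-glucuronidase, was at 584 and 217 CPM, a ratio of 2.69 (1.72 to 4.48). Man2b1, the lysosomal alpha-mannosidase, was at 834 and 446 CPM, a ratio of 1.87 (1.37 to 2.64). The 3 intervals lay above 1. The log2 ratio of Man2b1 was 0.89, but 0.13 in thinned cells and 0.52 with equal weight per cell, both under the call.

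The 5 lipid and acyl hydrolases and their cofactors were the class with the most RNA, 5807 CPM (5729 to 5885) after crush and 2914 CPM (2568 to 3295) without it, a ratio of 1.99 (1.76 to 2.26), and each of the 5 intervals lay above 1. Psap, the precursor of the saposins that lift lipids out of membranes (chromosome 10, 60277627 to 60302597, plus strand), was at 2797 CPM (2744 to 2852) and 1760 CPM (1493 to 2061), a ratio of 1.59 (1.36 to 1.88). Npc2, the soluble cholesterol carrier that hands its cargo to Npc1 (chromosome 12, 84754562 to 84773152, minus strand), was at 2203 CPM (2155 to 2251) and 823 CPM (644 to 1036), a ratio of 2.68 (2.12 to 3.42). In thinned cells the log2 ratio was 0.98 for Npc2 and 0.25 for Psap. Psap was under the call there, with equal weight per cell (0.28) and without the haemoglobin-rich cell (0.47).

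Lipa, the acid lipase that splits cholesteryl esters and triglycerides, had 835 injured UMIs in 204 cells and 4 uninjured UMIs in 3 cells. Its summed level was 226 CPM against 45.7 CPM, a ratio of 4.94 (1.92 to 18.2). Of the injured Lipa UMIs, 735 lay in cells of at least 5000 UMIs. With cells thinned to 500 UMIs Lipa was in 6.47% (4.79 to 8.51) of the injured and 6.12% (1.28 to 16.9) of the uninjured, and its log2 ratio there was -0.23. A single cell held 2 of the 4 uninjured UMIs, and without it the ratio was 9.78 (2.70 to 80.9), a rise that this choice of cell makes by design. Asah1, the acid ceramidase, was at 373 and 229 CPM, a ratio of 1.63 (1.05 to 2.68), with a log2 value of -0.08 in thinned cells and a ratio of 1.43 (0.919 to 2.34) without the haemoglobin-rich cell. Ppt1, the thioesterase that removes palmitate from proteins, was at 208 and 57.1 CPM, a ratio of 3.63 (1.55 to 11.2). Without the uninjured cell that held 2 of its 5 UMIs, the Ppt1 ratio was 5.86 (1.999 to 28.5), also raised by design. Exons of Ppt1 overlap Cap1 on the opposite strand, and the labels do not say whether strand was used in counting.

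The 3 peptidases together were lower after crush, at 1383 CPM (1345 to 1421) against 1771 CPM (1504 to 2073), a ratio of 0.781 (0.665 to 0.922), and Lgmn held most of their UMIs. The ratio depended on the cells, at 0.9725 without the uninjured Malat1-rich cells (the injured ones kept) and 0.563 with equal weight per cell. Lgmn, the asparaginyl endopeptidase legumain that activates other lysosomal proteases (chromosome 12, 102394084 to 102439813, minus strand), was at 1144 CPM (1109 to 1179) after crush and 1646 CPM (1388 to 1938) without it. The ratio of 0.695 (0.589 to 0.826) lay below 1 but above the level of a 1.5-fold call. Without the haemoglobin-rich cell the Lgmn ratio was 0.607 (0.514 to 0.721), and with equal weight per cell its log2 ratio was -1. In both settings Lgmn was called lower. Lgmn was in 57.4% of injured and 62.7% of uninjured cells, and after thinning in 31.4% (28.0 to 34.9) and 49.0% (34.4 to 63.7). Of the 144 uninjured UMIs of Lgmn, 27 came from 1 cell, and without that cell the ratio was 0.793 (0.660 to 0.961). Tpp1, which clips tripeptides from protein ends, was at 120 and 103 CPM, a ratio of 1.17 (0.611 to 2.58). Scpep1, a serine carboxypeptidase, had 440 and 2 UMIs, a ratio of 5.21 (1.43 to 43.1). Without 1 of the 2 uninjured cells, which raises the ratio by design, it was 9.27 (1.66 to 367).

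Among the regulators, Grn was higher and the transcription factors were not. Grn, which encodes progranulin, a secreted protein that is cut into granulins in the lysosome, was at 1185 CPM (1150 to 1221) and 526 CPM (385 to 701), a ratio of 2.26 (1.69 to 3.08). Tfe3 (chromosome X, 7762560 to 7775202, plus strand) had 151 injured UMIs in 93 cells and 12 uninjured UMIs in 9 cells. Its level was 40.8 CPM (34.6 to 47.9) against 137 CPM (70.9 to 240), a ratio of 0.298 (0.166 to 0.589). In the main setting it was the only compared gene of the set called lower. Of the 12 uninjured Tfe3 UMIs, 3 lay in 1 cell, and without that cell the ratio was 0.383 (0.197 to 0.854). In each of the 3 kinds of cell described below, the interval of the Tfe3 ratio included 1. Tfeb had 66 and 3 UMIs, 17.8 and 34.3 CPM, a ratio of 0.521 (0.171 to 2.59) that depth does not resolve.

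The comparison was then made within 3 kinds of cell, which the libraries held in unequal shares. Deep cells had at least 5000 UMIs (144 injured, 4 uninjured). Shallow cells were divided by Malat1, a nuclear RNA, into Malat1-rich cells with at least 1% of their UMIs in it (91 injured, 17 uninjured) and Malat1-poor cells (492 injured, 30 uninjured). The summed lysosomal genes were higher after crush in each kind. In deep cells the sums were 17122 CPM (16973 to 17272) and 7152 CPM (6304 to 8082), a ratio of 2.39 (2.12 to 2.72) that became 1.67 (1.48 to 1.89) without the haemoglobin-rich cell. In Malat1-poor cells they were 14515 CPM (14204 to 14832) and 8940 CPM (7827 to 10168), a ratio of 1.62 (1.43 to 1.86). In Malat1-rich cells they were 15162 CPM (14593 to 15748) and 11752 CPM (10462 to 13157), and the ratio of 1.29 (1.15 to 1.46) was the smallest. Mitochondrial genes took 11.7% of injured and 4.41% of uninjured UMIs in Malat1-rich cells, and 1.21 and 9.52% in Malat1-poor cells, so the cells of a kind were not alike in the 2 libraries. Macrophage and microglia markers summed to 38098 CPM in injured and 19145 CPM in uninjured deep cells, the haemoglobin-rich cell included. They summed to 13806 against 25885 CPM in Malat1-rich and 36944 against 28555 CPM in Malat1-poor cells. Oligodendrocyte markers stood at 2729 against 7887 CPM in Malat1-rich and 5183 against 18998 CPM in Malat1-poor cells. The part of these differences in the lysosomal ratios was not tested.

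In deep cells 22 of the 31 compared genes were higher and 2 lower, where 49.8% of all compared genes were higher and 15.0% lower, and the median log2 ratio was 1.31 beside 0.58 for all compared genes. Of the 31 genes, 5 had no UMI in the 4 uninjured deep cells, and with those set at the bound of 3 counts the median was 0.82. Lipa, with 735 UMIs in injured deep cells and 0 in uninjured ones, was at least 2.98-fold higher, and Scarb2, with 468 and 0, at least 1.90-fold. Lamp1 was at 2052 and 417 CPM, a ratio of 4.92 (2.98 to 8.79). Hexa and Grn had ratios of 4.16 (2.38 to 8.06) and 4.38 (2.38 to 9.14). Lgmn in deep cells was at 1225 and 1419 CPM, a ratio of 0.863 (0.655 to 1.16). Without the haemoglobin-rich cell 18 of the 31 were higher and 4 lower, with no share of all genes in that setting beside these counts. The ratios were then 3.40 (2.06 to 6.08) for Lamp1, 2.88 (1.645 to 5.57) for Hexa and 3.03 (1.64 to 6.32) for Grn. That of Lgmn was 0.597 (0.453 to 0.803), with its interval below 1. What a count of 0 allows rose from 83.5 to 120.8 CPM, so the bounds for Lipa and Scarb2 were smaller too.

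In Malat1-poor cells 21 of the 31 were higher and 2 lower, against 47.8% higher and 19.8% lower among all compared genes, with medians of 0.88 and 0.49. Relative to the median of all genes the counts were 11 higher and 6 lower, with no share of all genes on that scale beside them. The 6 genes with no uninjured UMI there were Atp6v0d1, Atp6v1a, Atp6v1b2, Atp6v1c1, Atp6v1h and Ppt1, and at their bounds the median was 0.63. Lamp1 was at 1867 and 617 CPM, a ratio of 3.03 (1.86 to 5.32), Npc2 at 2358 and 1387 CPM, a ratio of 1.70 (1.22 to 2.44), and Atp6v1g1 at 594 and 193 CPM, a ratio of 3.08 (1.31 to 9.56). Psap was level in these cells, at 1635 and 1503 CPM, a ratio of 1.09 (0.790 to 1.54).

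In Malat1-rich cells 12 of the 31 were higher and 5 lower, against 36.4% higher and 30.7% lower among all compared genes, with medians of 0.17 and 0.02. Of the 12, 4 had no uninjured UMI, and with zeros at their bound 8 were higher and the median was 0. Of the 31 intervals, 3 lay above 1 and 1 below. Lamp1 was at 1084 and 390 CPM, a ratio of 2.78 (1.48 to 5.88), Psap at 5612 and 2889 CPM, a ratio of 1.94 (1.53 to 2.495), and Man2b1 at 1413 and 742 CPM, a ratio of 1.91 (1.19 to 3.22). Lgmn was at 726 CPM (606 to 864) in injured and 2421 CPM (1856 to 3103) in uninjured Malat1-rich cells, a ratio of 0.3001 (0.220 to 0.413). These 17 cells held 62 of the 144 uninjured Lgmn UMIs. Of the 12 uninjured Tfe3 UMIs, 7 lay in Malat1-rich cells. The Tfe3 ratio was 0.365 (0.139 to 1.36) in deep, 0.3945 (0.159 to 1.11) in Malat1-rich and 0.5475 (0.081 to 23.4) in Malat1-poor cells. Each of these intervals included 1, but in deep cells without the haemoglobin-rich cell it was 0.252 (0.0960 to 0.941). The differences between the 3 kinds of cell were not tested. Across the 4 views Lamp1 was higher each time, with its interval above 1, and the ratio of Lgmn stayed below 1.

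**Figure D3:**
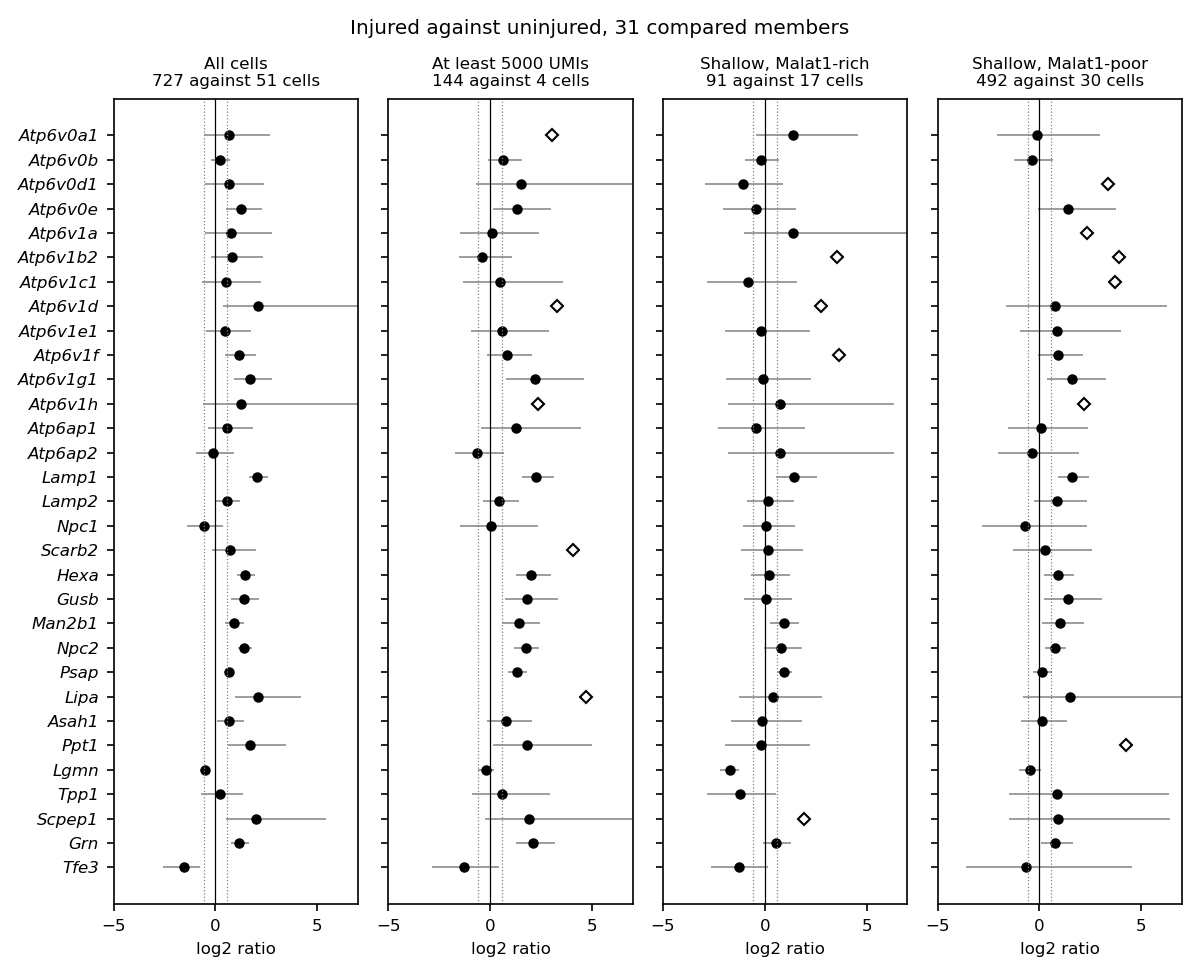
Log2 ratio of injured over uninjured level for the 31 compared genes in all cells and in each kind of cell, points with 10 CPM added to each level and grey lines the exact 95% interval of the ratio, cut at the axis ends; dotted lines mark 1.5-fold. Open diamonds have 0 uninjured UMIs and no interval; Lamp1 lies right of 0 with its interval in all 4 panels, and Lgmn lies left of 0 in all 4.

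Depth was then compared within the injured library. Between deep and shallow injured cells 3 of the 31 were higher by 1.5-fold and 0 lower, where 4.65% of all compared genes were higher and 6.59% lower. The higher genes numbered 6 with equal weight per cell and 8 in thinned cells. The 3 were Scpep1, at 132 and 68.5 CPM with a ratio of 1.92 (1.43 to 2.63), Lipa, at 248.9 and 134 CPM with a ratio of 1.85 (1.503 to 2.31), and Tpp1, at 131 and 79.2 CPM with a ratio of 1.65 (1.25 to 2.21). Lgmn followed at 1225 and 820 CPM, a ratio of 1.49 (1.37 to 1.63). The sum over the set went from 11789 CPM (10938 to 12688) in the 109 injured cells under 600 UMIs to 17329 CPM (17168 to 17492) in the 99 cells of at least 15000 UMIs. The V-ATPase genes were level between these cells, at 2835 CPM (2426 to 3294) and 2868 CPM (2803 to 2935). Lipid and acyl hydrolases went from 3764 to 6002 CPM and peptidases from 713 to 1510 CPM.

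Malat1-rich and Malat1-poor injured cells had nearly the same sum, 15162 and 14515 CPM, a ratio of 1.045 (0.9996 to 1.09), while single genes differed in both directions. Of the 31 genes, 9 were higher in Malat1-rich cells and 11 lower, against 38.3% higher and 36.0% lower among all compared genes, so these genes differed no more often than the background. Npc1 was at 289 CPM (216 to 381) in Malat1-rich and 44.0 CPM (28.4 to 64.9) in Malat1-poor cells, a ratio of 6.58 (4.01 to 11.1), and Tfe3 at 108 and 21.1 CPM, a ratio of 5.11 (2.36 to 11.5). Psap was at 5612 CPM (5268 to 5973) and 1635 CPM (1532 to 1744), a ratio of 3.43 (3.14 to 3.76). Atp6v0a1 and Atp6v1a were 3.15-fold (1.97 to 5.02) and 2.95-fold (1.55 to 5.57) higher. On the other side stood the small pump subunits and Npc2. Atp6v1g1 was at 108 CPM (64.9 to 168) in Malat1-rich and 594 CPM (533 to 661) in Malat1-poor cells, a ratio of 0.181 (0.108 to 0.288), and Atp6v1f at 113 and 582 CPM, a ratio of 0.195 (0.118 to 0.306). Atp6v0e and Npc2 both had a ratio of 0.351, with intervals of 0.209 to 0.558 and 0.294 to 0.417.

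Subunits of the same pump sector thus lay on opposite sides of this divide. The 9 genes that were higher in Malat1-rich cells spanned a median of 46.7 kb of genome (3.01 to 92.5) and the 11 lower ones 22.9 kb (2.79 to 36.4), and over the 31 genes the rank correlation of span with the log2 ratio was 0.27, given as a description. The ratio of V1 between Malat1-rich and Malat1-poor cells was 0.428 (0.354 to 0.515), and that of V0 1.20 (1.004 to 1.43). Malat1-rich cells made up 33.3% of the uninjured and 12.5% of the injured library. The genes low in Malat1-rich cells, Atp6v1g1, Atp6v1f and Atp6v0e, were among those higher after crush over all cells, and the part of the unequal mix of cells in their ratios was not tested. Tfe3, high in Malat1-rich cells, was lower after crush, and the part of the mix in its ratio was not tested either. An alternative added after the data were seen left out the 17 uninjured Malat1-rich cells and kept the 91 injured ones. The ratio of the summed set was then 2.10, that of V1 2.11 and that of V0 1.96. The cells left out had the highest uninjured sum of the 3 kinds, 11752 CPM, so the ratio of the summed set rose by design.

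**Figure D4:**
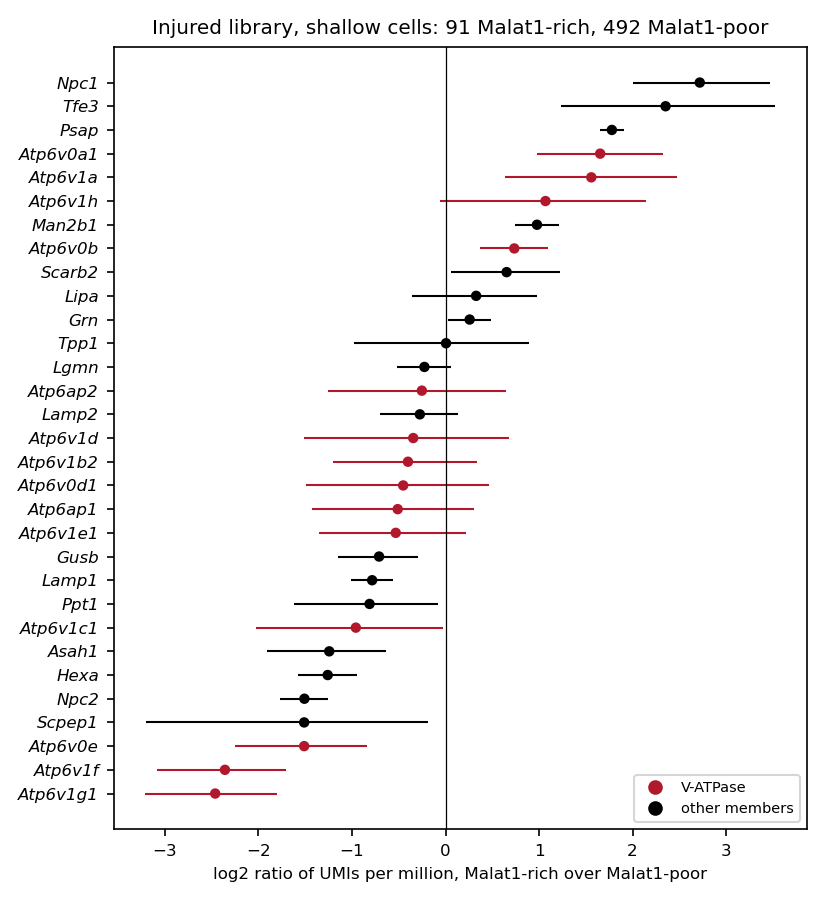
Log2 ratio of the level in Malat1-rich over Malat1-poor shallow injured cells for each of the 31 compared genes, ordered by ratio, with exact 95% intervals; V-ATPase genes are red and the others black. Npc1, Tfe3 and Psap lie at the top and Atp6v0e, Atp6v1f and Atp6v1g1 at the bottom, so pump subunits stand at both ends.

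The 99 injured cells of at least 15000 UMIs, which held 68.4% of the injured UMIs, were deep enough to compare single cells. There Psap ranged from 736 to 11763 CPM with a median of 2498 CPM, Lgmn from 54.2 to 4461 CPM with a median of 1196 CPM, Hexa from 54.2 to 3928 CPM with a median of 1360 CPM, and Lamp1 from 217 to 4300 CPM with a median of 1958 CPM. The spread over cells was set against counting error as chi-square over its degrees of freedom, which is about 1 where counting explains it. It was 28.0 for Psap, 9.57 for Atp6v0d2, 8.74 for Lgmn, 8.48 for Hexa and 6.46 for Lamp1, but 1.03 for Atp6v1f and 1.28 for Atp6v0b. Of the 15 pump genes other than Atp6v0d2, the highest value was 2.67, for Atp6v1g1. For the same relative spread this measure rises with level, and the pump genes were at lower levels than Psap, Lgmn, Hexa and Lamp1. At medians near those of Atp6v0b and Atp6v1f it was 4.34 for Gusb, 2.79 for Lamp2 and 1.94 for Asah1. V0 and V1 sums went together (Pearson r = 0.59, rho = 0.51 over 99 cells of 1 library), as did glycosidases and the progranulin group (r = 0.67, rho = 0.69). Pump and glycosidases did not (r = -0.003, rho = 0.05).

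Atp6v0d2 had a UMI in 23 of these 99 cells, up to 27 in 1 cell and up to 806 CPM. The cells with and without one were set side by side, a choice made after the values were seen. The 23 cells had a median of 27483 UMIs and the other 76 a median of 22714, so depth also moved with this split. The other 15 pump genes had a median of 2911 CPM (range 2128 to 4720) in the 23 cells and 2496 CPM (1410 to 4810) in the 76. Psap had a median of 3222 CPM (2107 to 11763) and 2082 CPM (736 to 7677). Gpnmb, a lysosomal glycoprotein of lipid-laden macrophages, had a median of 1518 CPM (39.0 to 14854) and 535 CPM (0 to 4696), and Lpl, the lipoprotein lipase, went the other way with 211 CPM (0 to 2711) and 482 CPM (0 to 4492). These ranges overlapped. Over the 99 cells Gpnmb went with the sum of all pump genes (r = 0.68, rho = 0.60) more than with the other lysosomal genes (r = 0.37, rho = 0.53). That pump sum includes Atp6v0d2, whose part in the correlation was not tested. Ctsd, the lysosomal aspartic protease, went with the other lysosomal genes (r = 0.73, rho = 0.75) and hardly with the pump (r = 0.11, rho = 0.21). These are descriptions of cells of 1 library.

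**Figure D5:**
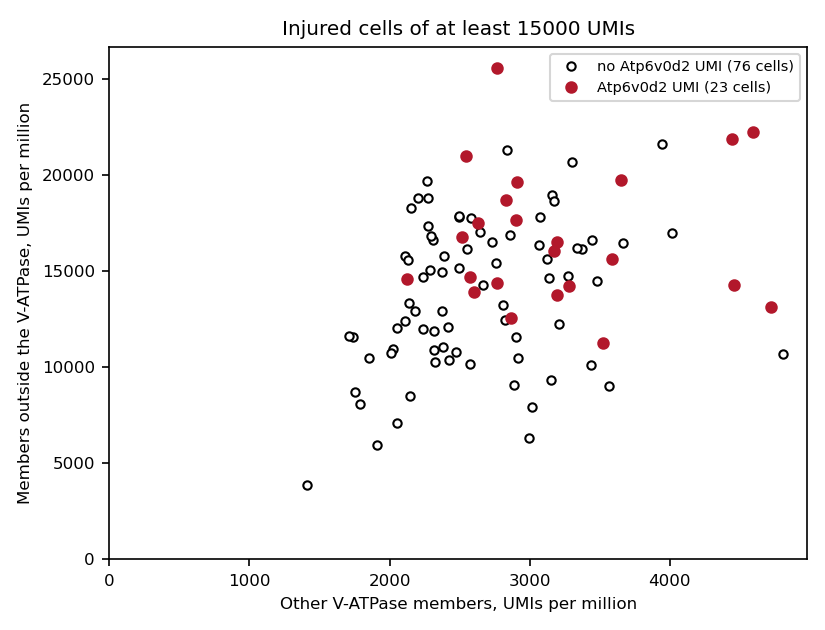
Summed CPM of the 15 V-ATPase genes other than Atp6v0d2 against those of the 18 other members, with 1 point for each of the 99 injured cells of at least 15000 UMIs; filled red points carry an Atp6v0d2 UMI. The 23 red points start at 2128 CPM on the pump axis and at 11279 CPM on the other, above the lowest of the open points, and mix with them otherwise.

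Other lysosomal genes were taken from lists made by function, and their counts over all cells stand beside 32.8% higher, 21.8% lower and a median log2 ratio of 0.17 among all compared genes. Of 25 compared hydrolases and cofactors outside the 34 genes, 11 were higher and 5 lower over all cells, with a median log2 ratio of 0.36. Pld3, a lysosomal exonuclease, was at 653 and 57.1 CPM, a ratio of 11.4 (4.89 to 35.2). Galc, the galactosylceramidase that breaks down a main myelin lipid, had 269 UMIs after crush and 0 without it and was at least 2.12-fold higher. Ids, the iduronate sulfatase, was lowest, at 10.3 and 80.0 CPM, a ratio of 0.128 (0.0567 to 0.341). Of 16 other membrane proteins 5 were higher and 2 lower, led by Cd63, a tetraspanin, at 2408 and 320 CPM with a ratio of 7.52 (5.20 to 11.3), with Cln8 at 140 and 0 UMIs, at least 1.10-fold higher, and Cd164 lowest at 0.265 (0.143 to 0.544). The 5 of 16 were near the background share. The kinds of cell differed. In Malat1-rich cells 6 hydrolases were higher and 11 lower (median -0.33) and 3 membrane proteins higher and 6 lower (median -0.37). Among all compared genes 36.4% were higher and 30.7% lower there. In deep cells 19 hydrolases were higher and 2 lower, 10 of the 25 having no uninjured UMI there. Of all compared genes 49.8% were higher and 15.0% lower in deep cells.

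Of 5 further compared pump genes, 1 was higher and 2 were lower, with a median log2 ratio of 0.17, as for all compared genes. Vma21, an assembly factor, had 119 and 1 UMIs, a ratio of 2.82 (0.496 to 112), Ccdc115 had 110 and 2, a ratio of 1.301 (0.352 to 10.9), and Atp6v0a2, a stator isoform of other membranes, was at 18.7 and 91.4 CPM, a ratio of 0.204 (0.0980 to 0.492). Of 11 genes that tie the lysosome to mTORC1 and the Tfe factors, 6 were higher and 0 lower (median log2 ratio 0.72), with a ratio for Rragc of 4.14 (1.138 to 34.3), Mitf, a factor of the same family as Tfe3, at 3.36 (0.593 to 134) and Fnip1 at 0.690 (0.311 to 1.91). Rragc and Mitf rest on 2 and 1 uninjured UMIs. Of 10 genes of lysosomal trafficking, 6 were higher and 1 lower (median log2 ratio 0.89), with Vps29 at 4.90 (1.35 to 40.6), Gnptab at 4.43 (0.785 to 176) and Gnptg at 0.587 (0.245 to 1.84).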

How the data were processed

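The authors captured cells with the 3' droplet kit (v2), and per the submitters' processing notes reads were processed on mm10 with Cell Ranger 1.3 and, besides it, Seurat 4.0.3 and bcl2fastq 2.17.1.14. The deposited table holds raw UMI counts, whole numbers, with genes as rows and cells as columns. It covers 778 cells that passed the authors' filters, 727 injured and 51 uninjured, named by library. No doublet caller was run. In 26 gene rows the name had become a date, none of them a lysosomal gene studied here.

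Counts were summed per library and kind of cell with python 3.11.15, numpy 2.4.6, pandas 2.3.3 and scipy 1.17.1, and figures drawn with matplotlib 3.10.9. A gene was called at 1.5-fold on log2(CPM + 10). Levels carry exact Poisson intervals, ratios exact conditional binomial intervals and shares Clopper-Pearson intervals, at 95%. PCR and capture variation lie outside them. The limit for 0 UMIs is 3 counts of the total. Thinning used seed 1. The scripts were tested on simulated data.

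All 34 genes are accounted for. Of each other lysosomal list, the 2 compared genes with the highest log2 ratio and the 1 with the lowest are named. The members and lists were chosen with earlier results of these data known. Alternatives were other pseudocounts, weights, totals, gene filters, calls and class limits, thinning, and leaving out single uninjured cells.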

Additional observations from a re-analysis of the deposited data

How the results depend on the processing

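No paired analysis was possible because each group was 1 library, and for the same reason no replicate could be left out. Over all cells, the ratio of the summed 34 genes was 1.502 with equal weight per cell and 1.54 with mitochondrial, ribosomal and haemoglobin genes out of the total. It was 1.612 without the haemoglobin-rich cell (also the deepest uninjured cell) and 1.415 in thinned cells. It was 2.104 without the uninjured Malat1-rich cells, with the injured ones kept, an alternative chosen after seeing the data. The lower genes numbered 2 with a pseudocount of 1 CPM, equal weight per cell, a 5% filter, no filter or thinned cells, and 3 with the reduced total, relative to the median of all genes, or without the haemoglobin-rich cell. Without the haemoglobin-rich cell the 3 lower genes were Tfe3, Lgmn and Npc1. A 2-fold call left 13 higher. The shares of all compared genes given above belong to the main setting, so counts in the other settings have no background beside them. With the reduced total the median of all genes moved from 0.17 to -0.05. Of the 22 genes called higher, 11 kept the call in the 12 settings other than the 2-fold call: Atp6v0e, Atp6v1d, Atp6v1f, Atp6v1g1, Lamp1, Hexa, Grn, Npc2, Gusb, Ppt1 and Scpep1. Tfe3 stayed lower in the same settings. Fewer than 12 of these settings could change a call. The other gene filters and zeros at their bound left the value of each gene as it was. Leaving out the deepest or the haemoglobin-rich uninjured cell was the same setting.

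In deep cells the summed ratio was 1.621 with the reduced total, 1.668 without the haemoglobin-rich cell and 1.787 in thinned cells. For the V-ATPase genes alone it was 1.904 in the main setting and 1.289, 1.368 and 0.967 in these. The thinned values have no interval and rest on 4 uninjured cells with a mean of 4.75 UMIs of the set per cell. The haemoglobin-rich cell is among them. The value of 0.967 therefore cannot show whether the pump difference was lost. With the divide at 10000 UMIs, which leaves the haemoglobin-rich cell as the only uninjured one, the summed ratio of the set was 94.81, with a median log2 ratio of 3.98. A 2-fold call left 7 higher in Malat1-rich cells, 12 in Malat1-poor cells, and 5 higher and 7 lower between injured Malat1-rich and Malat1-poor cells. Relative to the median of all genes, 11 were higher in Malat1-poor cells. Between deep and shallow injured cells, 6 were higher with equal weight, relative to the median or with the divide at 3000 UMIs, 8 in thinned cells and 0 at 2-fold. The log2 ratio turned to -0.23 for Atp6ap1 with equal weight, and in thinned cells to -0.23 for Lipa, -0.081 for Asah1 and -0.34 for Scarb2; the cause was not tested. The 87499 uninjured UMIs limit the comparisons between the libraries.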

Other observations

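Within the 99 injured cells of at least 15000 UMIs, the cells with an Atp6v0d2 UMI had a pooled Spp1 level 2.15-fold that of the other cells and a pooled Acp5 level 4.39-fold that of the other cells. Spp1 encodes osteopontin, and Acp5 an acid phosphatase known from osteoclasts. The medians of Acp5 were 27.7 CPM (0 to 835) in the 23 cells and 0 CPM (0 to 281) in the 76 cells. Ctsk and Mmp9, also known from osteoclasts, were nearly absent. Pooled Ctsk was at 1.58 CPM in the 23 cells and 0 CPM in the 76, and Mmp9 at 0 CPM in both. The medians of Spp1 were 13390 CPM (409 to 99137) in the 23 cells and 4189 CPM (0 to 85092) in the 76 cells, with wide overlap. Lamp2 went the other way, with medians of 316 and 452 CPM. The split was chosen after the values were seen and the cells come from 1 library, so no test was made.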
